A study of Rattus norvegicus with 12 samples.

Results

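The cyclooxygenases and the enzymes placed before and after them in prostaglandin synthesis were followed in cultured rat retinal ganglion cells (RGCs), the output neurons of the retina that project through the optic nerve. The set held 6 genes: Pla2g4a, Ptgs1, Ptgs2, Ptges, Ptgds and Ptgis. Its members were all probe sets annotated with 1 of these symbols alone, and 8 of the 31042 probe sets on the Affymetrix Rat Genome 230 2.0 arrays met that rule. Ptgs1 and Ptges were each read by 2 probe sets, which share a transcript and are not independent, and the other 4 genes by 1 each. The genes were chosen with their differences between endothelin-treated and untreated cells already known, so those differences are given as a description with no test.

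Panning on anti-Thy-1.1, against a protein of the RGC surface, isolated the cells from retinas of Sprague-Dawley rats at postnatal day 4 to 6. Culture lasted 7 days in DMEM free of serum, supplemented with forskolin, ciliary neurotrophic factor and brain-derived neurotrophic factor, and was followed by a night in medium lacking the neurotrophic factors, in all 4 groups alike. The groups were 100 nM endothelin-1 (ET-1), 100 nM endothelin-2 (ET-2) and 100 nM endothelin-3 (ET-3), each for 24 h, and untreated cells, which the sample descriptions call vehicle-treated. Each group had 3 arrays, numbered 1 to 3 as biological replicates, which made 12 arrays in all. What a replicate number marks, and how many animals a culture held, is not in the labels, so p-values measure the spread between these arrays. The values are MAS5 intensities, 1 per probe set and array on a linear scale, and array medians ran from 136 to 181.

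Prostaglandin synthesis starts when a phospholipase A2 frees arachidonic acid from membrane phospholipids. The cyclooxygenases then turn arachidonic acid into an unstable prostaglandin precursor, and a terminal synthase turns that precursor into prostaglandin E2, prostaglandin D2 or prostacyclin. Cyclooxygenase-1 is usually described as the constant form and cyclooxygenase-2 as the form induced by cytokines, growth factors and neuronal activity, and in many tissues the inducible prostaglandin E synthase comes on together with cyclooxygenase-2. Endothelins are small secreted peptides that signal through a pair of G protein-coupled receptors and are known as constrictors of blood vessels and as activators of glia.

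The 3 genes of the set with the widest differences, Ptgs1, Ptgs2 and Ptges, are shown by the 250 bases before their RefSeq start (assembly GRCr8). They were picked for those differences, so the windows are a description. Capitals mark letters that match a searched motif, and positions count back from -1, the base before the start. RefSeq windows were found for 5 of the 6 members. The Ptgs1 window lies at chr3:39981169-39981418 on the plus strand, the Ptgs2 window at chr13:64713813-64714062 on the plus strand and the Ptges window at chr3:34586988-34587237 on the minus strand, each written 5′ to 3′ in the direction of the gene.
Ptgs1: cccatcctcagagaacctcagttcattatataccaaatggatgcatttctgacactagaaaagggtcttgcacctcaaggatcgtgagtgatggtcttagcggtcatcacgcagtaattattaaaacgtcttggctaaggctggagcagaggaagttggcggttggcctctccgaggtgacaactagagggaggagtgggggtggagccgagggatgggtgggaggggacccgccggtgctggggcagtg
Ptgs2: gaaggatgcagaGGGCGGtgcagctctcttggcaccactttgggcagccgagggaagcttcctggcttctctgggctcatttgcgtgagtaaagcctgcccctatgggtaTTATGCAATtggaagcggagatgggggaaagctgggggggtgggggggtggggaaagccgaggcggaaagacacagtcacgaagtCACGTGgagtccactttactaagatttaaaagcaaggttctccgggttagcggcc
Ptges: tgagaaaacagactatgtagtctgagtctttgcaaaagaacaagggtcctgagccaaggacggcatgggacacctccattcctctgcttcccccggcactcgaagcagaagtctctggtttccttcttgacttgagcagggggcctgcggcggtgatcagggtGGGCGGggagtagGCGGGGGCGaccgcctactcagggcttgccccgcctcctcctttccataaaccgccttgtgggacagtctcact

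The motifs searched, on both strands, were an Egr site (GCGGGGGCG), a GC box (GGGCGG), an E-box (CACGTG), a C/EBP site (TTNNGNAAT), a CRE core (TGACG), an AP-1 site (TGANTCA) and a TATA box (TATAAA). The Ptgs2 window held a GC box at -238 to -233, a C/EBP match at -140 to -132 and an E-box at -55 to -50. The Ptges window held a GC box at -87 to -82 and an Egr match at -74 to -66. In the Ptgs1 window no searched motif was matched. Among all 33469 RefSeq windows of the same length, 2.45% held the Egr letters, 30.5% the GC box, 5.59% the E-box, 10.9% the C/EBP letters, 18.2% the CRE core, 6.34% the AP-1 letters and 12.9% the TATA box. Of the windows not printed, that of Ptgds held GC box letters at 2 overlapping positions on the minus strand and that of Pla2g4a held TATA box letters on the minus strand at -108 to -103. These matches are letters in a window and were not tested as sites.

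On GRCr8, 4 of the members lie on chromosome 3 (Ptgds, Ptges, Ptgs1 and Ptgis) and 2 on chromosome 13. Pla2g4a (64427921 to 64572352, minus strand) and Ptgs2 (64714063 to 64722320, plus strand) are neighbours on chromosome 13, with starts facing each other across 141.7 kb that holds 2 annotated genes, 0 of them protein-coding. Ptgds spans 28680044 to 28682978 (minus strand), Ptges 34575643 to 34586987 (minus strand), Ptgs1 39981419 to 40002993 (plus strand) and Ptgis 176347589 to 176383251.

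Arrays grouped by replicate number. Deviations from the group means correlated for all 18 same-numbered pairs of arrays, with r between 0.684 and 0.912 across probe sets. Between the 36 pairs with different numbers in different groups r was negative (-0.706 to -0.056). Subtracting the group means makes these negative on average once the same-numbered ones are positive, so they add no separate evidence. The 4 arrays numbered 1 stood apart in their fibroblast transcripts. The summed intensity of 10 fibroblast and meningeal markers in replicate 1 was 52924 with ET-1, 56455 with ET-2, 50729 with ET-3 and 54371 in untreated cells. It was 7442 to 11652 over the 8 arrays of replicates 2 and 3. Collagen (Col1a1, Col1a2 and Col3a1), Dcn and Lum carried much of that sum. Foxc1 (20.9 to 60.1 over the 12 arrays), Slc22a6 (8.2 to 114) and Aldh1a2 (19.2 to 99.1) lay below the filter in their means. Each of them had its highest value outside replicate 1. The 12 measured RGC markers, among them Sncg, Rbpms and Slc17a6, summed to 86871 to 91756 in replicate 1 and 103679 to 136941 in the others, and all 12 passed the intensity filter. Of 9 measured endothelial markers 2 passed the filter, Kdr (136 to 546 over the 12 arrays) and Esam (74 to 320), and 7 did not, among them Pecam1 (3 to 49), Cldn5 (4 to 52), Flt1 (22 to 208) and Emcn (3 to 269). The fit used below was limma with the replicate number as a block over the 15521 probe sets above the median intensity (about 147.5), with Benjamini-Hochberg adjustment over all of them. In bulk RNA, fewer cells of a type and less RNA per cell cannot be told apart.

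Pla2g4a encodes the cytosolic phospholipase A2 that frees arachidonic acid in response to calcium. Its intensity was 926, 361 and 295 with ET-1 in replicates 1, 2 and 3. It was 842, 275 and 252 with ET-2. With ET-3 it was 951, 411 and 182, against 577, 212 and 191 in untreated cells. Replicate 1 was the highest in every group, the groups overlapped, and the ET-3 array of replicate 3 lay just below its untreated partner while the other 8 endothelin arrays lay above theirs. The log2 differences from untreated cells were 0.69 with ET-1, 0.44 with ET-2 and 0.54 with ET-3 (SE 0.17 each, 3 arrays a group), which are folds of 1.62, 1.36 and 1.45. Between replicate numbers the gene differed more than between groups: 85.9% of its log2 sum of squares lay between the 3 numbers and 9.23% between the 4 groups. Replicate 1 averaged 3.59 times the replicate with the lowest mean.

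Ptgs1 encodes cyclooxygenase-1. Its brighter probe set, 1368259_at, read 1463, 696 and 431 with ET-1 in replicates 1, 2 and 3. It read 1577, 484 and 379 with ET-2. With ET-3 it read 1520, 638 and 334, against 116, 209 and 190 in untreated cells. All 9 endothelin arrays lay above all 3 untreated arrays. Replicate 1 was the highest in each endothelin group and the lowest among the untreated arrays. On the log2 scale the differences from untreated were 2.19 with ET-1, 1.99 with ET-2 and 2.04 with ET-3 (SE 0.42 each), which are folds of 4.56, 3.97 and 4.12. Within replicate 1 the mean endothelin fold over its untreated partner was 13.1 (12.6 to 13.6). In replicate 2 it was 2.87 (2.32 to 3.33) and in replicate 3 it was 1.99 (1.75 to 2.27). The untreated array of replicate 1 (116) lay below the filter's intensity of about 147.5. Leaving out replicate 1 brought the log2 differences to 1.46, 1.11 and 1.21 with ET-1, ET-2 and ET-3, with the same direction. Single fibroblast transcripts of the replicate 1 arrays went both ways: Dcn read 8981, 9832 and 7689 with ET-1, ET-2 and ET-3, against 6467 in untreated cells, and Lum 9182, 10447 and 9446, against 7101. Ogn read 2774, 2603 and 2725 with the 3 endothelins, against 6480.0 in untreated cells, and the part of these cells in the Ptgs1 values was not tested.

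The other Ptgs1 probe set, 1381806_at, lay below the intensity filter, at 22.9 to 146 over the 12 arrays, and was not tested. It was higher than its untreated partner on 8 of 9 endothelin arrays, with log2 differences of 0.53, 1.01 and 1.01 with ET-1, ET-2 and ET-3 (SE 0.37 each). Its groups overlapped, so the 2 probe sets gave the same direction in the means but not the same separation.

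Ptgs2 encodes cyclooxygenase-2. It read 3323, 1222 and 628 with ET-1 in replicates 1, 2 and 3. It read 3834, 783 and 570.4 with ET-2. With ET-3 it read 3223, 1265 and 572, against 878, 287 and 333 in untreated cells. Each of the 9 endothelin arrays exceeded its own untreated partner, but the groups overlapped because the untreated array of replicate 1 lay above some endothelin arrays of replicates 2 and 3. The fitted log2 differences were 1.64 with ET-1, 1.45 with ET-2 and 1.60 with ET-3 (SE 0.23 each), which are folds of 3.12, 2.73 and 3.03. The mean endothelin fold was 3.93 in replicate 1, 3.72 in replicate 2 and 1.77 in replicate 3. Of its log2 sum of squares 63.0% lay between replicate numbers, 31.8% between groups and 5.17% in neither. The 3 replicate means spanned a 4.80-fold range, and without replicate 1 the log2 differences were 1.50, 1.11 and 1.46.

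**Figure D1:**
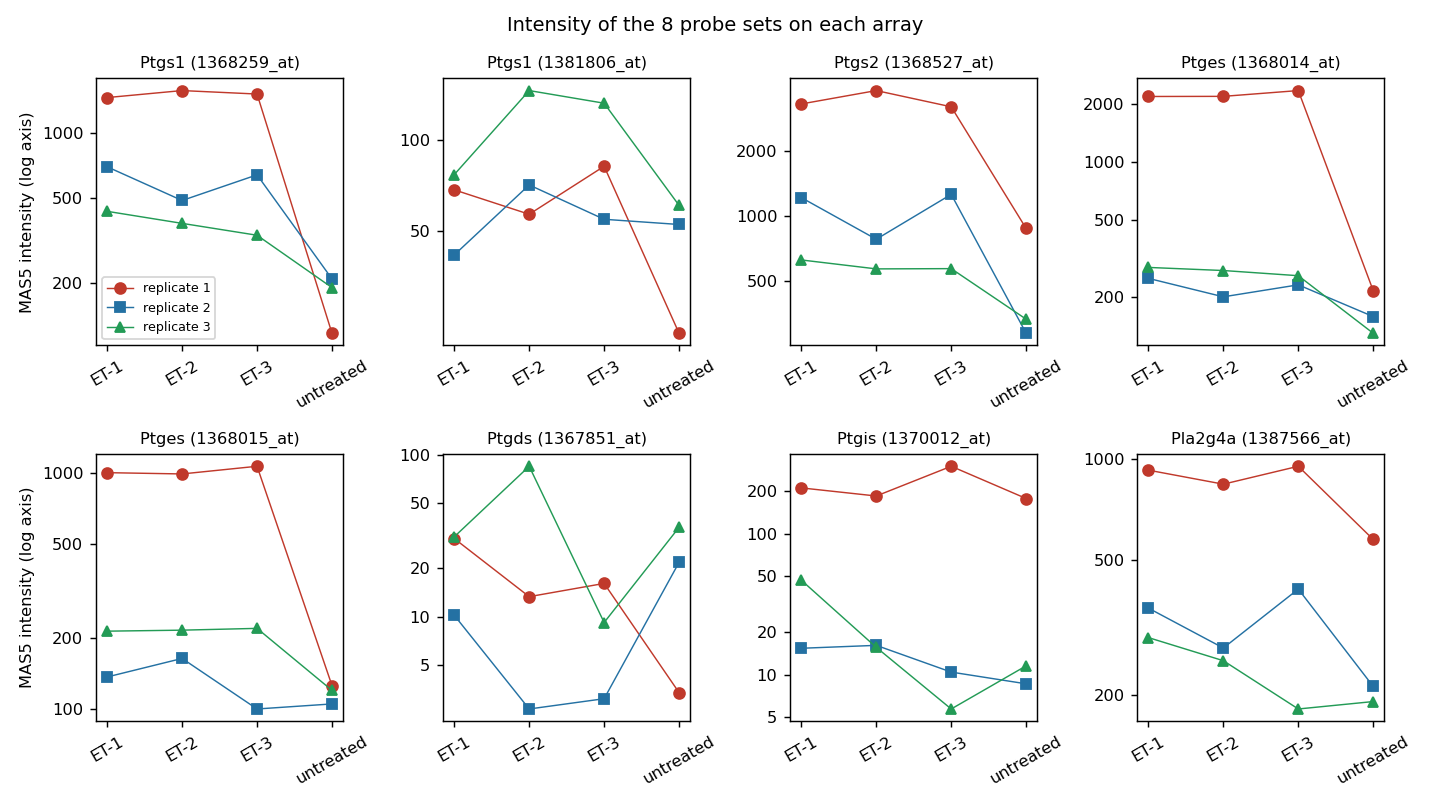
MAS5 intensity (log axis) of the 8 probe sets of the 6 genes on each of the 12 arrays, by group, with 1 symbol and colour per replicate number and lines joining arrays of 1 number. Ptgs1 (1368259_at) is above untreated on all 9 endothelin arrays, while Ptgis and Pla2g4a are set apart by replicate 1 in every group.

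Ptges encodes the inducible, membrane-bound prostaglandin E synthase. Its brighter probe set, 1368014_at, read 2193, 251 and 286 with ET-1 in replicates 1, 2 and 3. It read 2196, 201 and 275 with ET-2. With ET-3 it read 2353, 232 and 259, against 216, 159 and 130.3 in untreated cells. The 3 endothelin arrays of replicate 1 stood far above the other 9 arrays, and the endothelin arrays of replicates 2 and 3 lay close to the untreated range. No untreated array reached any ET-1 or ET-3 array, whereas ET-2 overlapped with untreated. In the fit the log2 differences were 1.71 with ET-1, 1.59 with ET-2 and 1.66 with ET-3 (SE 0.44 each), which are folds of 3.27, 3.01 and 3.16. By replicate number the mean endothelin fold was 10.4 in replicate 1, 1.43 in replicate 2 and 2.10 in replicate 3. Without replicate 1 the log2 differences were 0.90, 0.71 and 0.77.

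The other Ptges probe set, 1368015_at, showed the same split by replicate number. It read 1005, 137 and 214 with ET-1, 993, 164 and 216 with ET-2 and 1070, 100.3 and 220 with ET-3, against 126, 105 and 120.3 in untreated cells. Its mean endothelin fold was 8.11 in replicate 1, 1.25 in replicate 2 and 1.80 in replicate 3. All 3 untreated arrays lay below the filter's intensity (about 147.5), so these folds rest on untreated values under it. The probe set passed the filter only through its endothelin arrays. Over the 3 replicates the log2 differences were 1.40, 1.49 and 1.30 with ET-1, ET-2 and ET-3 (SE 0.43 each), and 0.61, 0.74 and 0.40 without replicate 1.

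Ptgis encodes prostacyclin synthase, a cytochrome P450 enzyme of vessel wall cells and fibroblasts. It read 212, 15.4 and 46.8 with ET-1 in replicates 1, 2 and 3. It read 185, 16.1 and 15.6 with ET-2. With ET-3 it read 301, 10.4 and 5.7, against 178, 8.6 and 11.5 in untreated cells. Replicate 1 held the high value in all 4 groups, untreated cells included, and only those 4 arrays lay above the filter's intensity. Of its log2 sum of squares 88.2% lay between replicate numbers and 4.48% between groups, and its replicate means spanned a 17.6-fold range. Its fitted differences were, in log2 units, 1.04 with ET-1, 0.47 with ET-2 and 0.01 with ET-3 (SE 0.56 each).

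Ptgds encodes the lipocalin-type prostaglandin D synthase, which is also a carrier of lipophilic molecules in brain and eye fluids. It read 30.4, 10.2 and 31.1 with ET-1, 13.3, 2.7 and 84.8 with ET-2 and 16.0, 3.1 and 9.2 with ET-3, against 3.4, 21.6 and 35.6 in untreated cells. Every one of these values lay below the filter's intensity, and 4 of the 9 endothelin arrays were above their untreated partner. All 3 endothelin arrays were higher than untreated in replicate 1 and all 3 were lower in replicate 2. Fitted over all arrays, the log2 differences were 0.63, 0.07 and -0.84 with ET-1, ET-2 and ET-3 (SE 0.99 each).

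**Figure D2:**
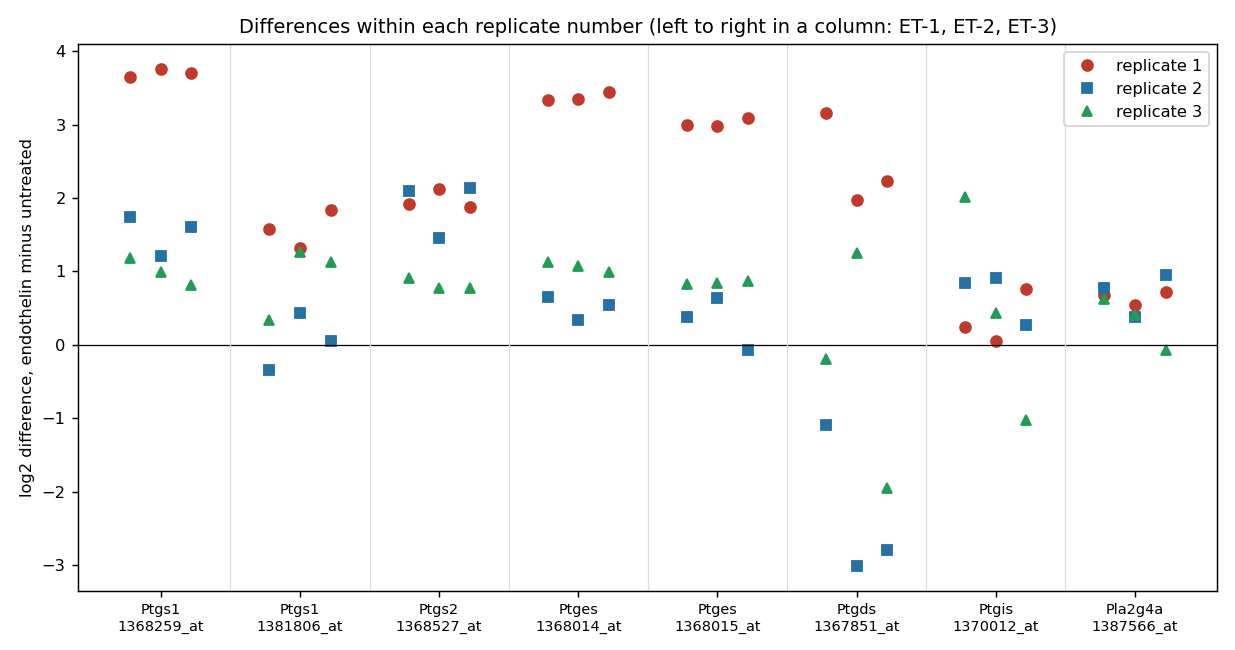
Log2 difference of each endothelin array from the untreated array with the same replicate number, for the 8 probe sets, with ET-1, ET-2 and ET-3 from left to right in each column. Replicate 1 lies apart from replicates 2 and 3 for Ptgs1 (1368259_at) and both Ptges probe sets, whereas for Ptgs2 replicate 3 is the lowest with each endothelin.

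Of the 8 probe sets, 5 passed the intensity filter, and in each of the 3 comparisons with untreated cells 2 of these 5, Ptgs1 and Ptgs2, passed limma's adjusted threshold of 0.05 as higher. Nothing is read from that count, since these contrasts chose the genes. Over all 15521 tested probe sets 1.51% passed as higher and 0.219% as lower with ET-1. With ET-2 these shares were 1.28% and 0.322%, and with ET-3 they were 2.13% and 0.509%. When each array was centred on its median instead, 193 were higher and 1025 lower with ET-2, and 228 higher and 218 lower with ET-3, against 199 and 50, and 331 and 79, in the authors' scaling. Without the replicate number in the fit 0 probe sets passed in any of the 3 comparisons, with 237, 223 and 297 at an unadjusted p under 0.05 for ET-1, ET-2 and ET-3. The 3 comparisons share the same untreated arrays.

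The 3 endothelins are related peptides of separate genes and were given at the same dose and for the same time, so the members were tested between them, a contrast that did not choose them. This made 15 differences, 3 pairs of endothelins for each of the 5 probe sets above the filter, and none passed limma's threshold: every adjusted p was 0.9989 or more over all 15521 probe sets. The smallest unadjusted p was 0.171, for Pla2g4a between ET-2 and ET-1. Ptgs2 differed between ET-2 and ET-1 by -0.19 on the log2 scale (95% interval -0.68 to 0.30), between ET-3 and ET-1 by -0.04 (-0.54 to 0.45) and between ET-3 and ET-2 by 0.15 (-0.35 to 0.64). Pla2g4a differed by -0.25 (-0.63 to 0.13), -0.16 (-0.54 to 0.22) and 0.09 (-0.28 to 0.47) in the same 3 pairs. The intervals of these 2 genes together reach from -0.68 to 0.64.

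The intervals of Ptgs1 and Ptges were wider. Ptgs1 (1368259_at) differed by -0.20 between ET-2 and ET-1 (-1.12 to 0.72), by -0.15 between ET-3 and ET-1 (-1.07 to 0.77) and by 0.05 between ET-3 and ET-2 (-0.87 to 0.97). Ptges (1368014_at) differed by -0.12 (-1.08 to 0.83), -0.05 (-1.01 to 0.90) and 0.07 (-0.88 to 1.03) in the same pairs. Its other probe set, 1368015_at, gave 0.09 (-0.85 to 1.02), -0.11 (-1.04 to 0.83) and -0.19 (-1.13 to 0.74). A doubling or halving between endothelins lies near the ends of these intervals. Over all probe sets tested, each pair of endothelins had 0 calls (a share of 0) by limma, with 574 probe sets at an unadjusted p under 0.05 for ET-2 against ET-1, 347 for ET-3 against ET-1 and 583 for ET-3 against ET-2.

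**Figure D3:**
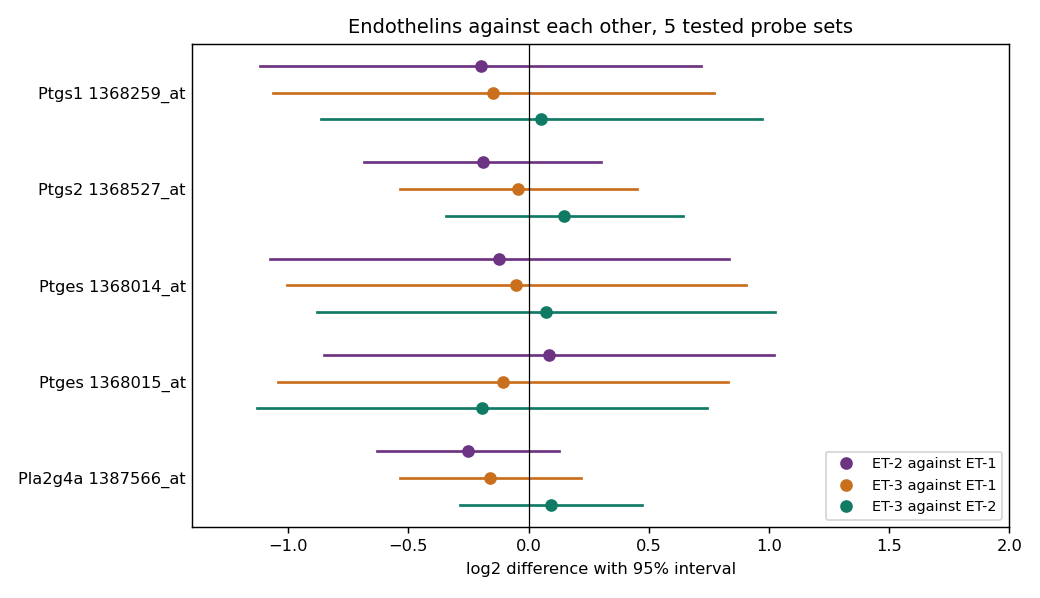
Log2 differences between endothelins with 95% intervals for the 5 probe sets above the intensity filter, from limma with the replicate number as a block. All 15 intervals include 0, and those of Ptgs2 and Pla2g4a are narrower than those of Ptgs1 and Ptges.

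The members' levels were compared with each other as patterns over the 12 arrays, which share replicate numbers and scaling, so the correlations are descriptions. Pearson's r of log2 intensity was 0.91 for Ptgs2 with Ptges, 0.86 for Ptgs1 with Ptgs2 and 0.85 for Ptgs1 with Ptges. After the mean of each replicate number was subtracted, r was 0.82 for Ptgs2 with Ptges, 0.93 for Ptgs1 with Ptgs2 and 0.97 for Ptgs1 with Ptges. Pla2g4a followed Ptgs2 (r = 0.93) and Ptgis (r = 0.91), and with the replicate means removed these values were 0.85 and 0.61. Ptgds followed none of the others in level, with r from -0.15 to 0.17. With the replicate means removed its r ran from 0.05 (Ptgs2) to 0.43 (Ptges).

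Among the 9421 tested genes outside the set, those most like Ptgs1 in level were Actn4 (r = 0.978), Cited2, Flna, Tln1 and Rgs16 (r = 0.945). With the replicate means removed they were Sdc4 (r = 0.991), Akap12, Spcs2, Msmo1 and Gpx8 (r = 0.986). Those most like Ptgs2 in level were Elk3 (r = 0.996), Ccl2, Arpc1b, Icam1 and Egr1 (r = 0.983), and with the replicate means removed Elk3 (r = 0.994), Ccl7, Cald1, S100a6 and Cav1 (r = 0.987). Elk3 thus led both Ptgs2 lists, whereas the 2 Ptgs1 lists shared no gene. Ptges was most like Ube2c (r = 0.993), Racgap1, Mki67, Pimreg and Spc24 (r = 0.989). Pla2g4a was most like Emp1 (r = 0.991), Fkbp11, Sparc, Ginm1 and Lamb2 (r = 0.984), and Ptgis was most like Ssr2 (r = 0.974), Mdfi, Ltbp3, Fkbp10 and Tpst1 (r = 0.958). The nearest genes to Ptgds were less alike, from Arhgef7 (r = 0.850) through Nfkbib, Dnajb12 and Tmf1 to Eif4enif1 (r = 0.811).

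The calls given below for other genes rest on the replicate number in the fit, since 0 passed without it. Of 20 further phospholipases, lipases and acyl-chain enzymes listed, 14 were measured and 7 passed the filter, and limma called 0 of the 7 with any endothelin, with 1 at an unadjusted p under 0.05 in each comparison. Their median log2 difference was 0.06 with ET-1, 0.04 with ET-2 and 0.03 with ET-3, beside -0.03, -0.02 and -0.03 over all tested probe sets. The 3 with the smallest p were Pla2g15, a lysosomal phospholipase (0.28, -0.01 and 0.12 with ET-1, ET-2 and ET-3), the secreted Pla2g12a (0.09, 0.25 and 0.02) and Lpcat3, which puts arachidonate back into phospholipids (0.20, 0.26 and 0.29). The 7 below the filter were not tested, and some had wider differences: the secreted Pla2g2d (3 to 62 over the 12 arrays) gave 1.52, 1.86 and 0.91, the secreted Pla2g2a (4 to 2717) 1.11, 0.18 and 0.26, and Pla2g4b (40 to 147) -0.09, -0.69 and -0.69. Pla2g2a was high in replicate 1 in every group: 2717, 2443 and 1958 with ET-1, ET-2 and ET-3 and 2464 in untreated cells. On the arrays of replicates 2 and 3 it read 4.3 to 72.6, the highest being ET-1 in replicate 2 (13.3 in its untreated partner).

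Of 10 other terminal synthases and helpers, 9 were tested, and limma called 1 of them, Akr1b8, as higher with each endothelin. Akr1b8 encodes an aldo-keto reductase of the family that holds prostaglandin F synthase activity. It read 3226, 1756 and 4108 with ET-1 in replicates 1, 2 and 3, 3100.1, 1207 and 4403 with ET-2 and 3052, 1703 and 4587 with ET-3, against 1148, 689 and 3503 in untreated cells. Each endothelin array exceeded its untreated partner, with the narrowest gaps in replicate 3. As fitted, the log2 differences were 1.02, 0.86 and 1.04 with ET-1, ET-2 and ET-3 (limma adjusted p 0.018, 0.046 and 0.014). Ptges3, the prostaglandin E synthase usually described as constant, stayed between 8029 and 9307 on all 12 arrays (0.07 in each comparison, lowest adjusted p 0.444). Hpgds, the haematopoietic prostaglandin D synthase of microglia and mast cells, gave -0.08, -0.27 and -0.01 (lowest adjusted p 0.307), and Akr1b1 gave 0.06, 0.03 and 0.04.

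Prostanoid receptors were near the floor. Of 10 listed, 8 were measured, and 7 of these (Ptger1, Ptger2, Ptger3, Ptger4, Ptgdr2, Ptgfr and Tbxa2r) lay below the filter, with values from 2.3 to 135 over the 12 arrays. The 1 tested, Ptgfrn, a membrane protein that binds the prostaglandin F receptor, gave 0.20, 0.13 and 0.16 with ET-1, ET-2 and ET-3 and was not called (lowest adjusted p 0.337). Of 10 genes of prostanoid transport and breakdown, 9 were measured and 6 tested. Ptgr1, a reductase that inactivates prostaglandins and leukotriene B4, was called higher with ET-2 (0.83, adjusted p 0.037) and ET-3 (0.87, 0.021) by limma, and its value with ET-1 was 0.76 (0.051). It read 5906, 1837 and 5531 with ET-1, 6307, 1618 and 6782 with ET-2 and 6002, 2231 and 5705 with ET-3, against 3274, 765 and 4950.3 in untreated cells. The transporters Slco3a1 (0.21, 0.25 and 0.26) and Abcc4 (0.16, 0.02 and 0.02) and the reductase Cbr4 (-0.19, -0.11 and -0.20) were not called.

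In the lipoxygenase, leukotriene and epoxide branch, 19 of 21 listed genes were measured and 7 tested. Mgst2, a microsomal glutathione transferase that can make leukotriene C4, was called higher by limma with ET-1 (0.87, adjusted p 0.030) and ET-3 (0.80, 0.039), and was 0.64 with ET-2 (0.115). It read 2028, 387 and 335 with ET-1, 2012, 275 and 291 with ET-2 and 2088, 301 and 357 with ET-3, against 789.7, 223 and 243 in untreated cells, so replicate 1 was the highest in all 4 groups. Lta4h, which makes leukotriene B4 (0.18, 0.09 and 0.15), Mgst3 (-0.10, -0.12 and -0.11) and the epoxide hydrolase Ephx1 (-0.29, -0.42 and -0.36) were not called. Without replicate 1 limma called 0 of the tested genes in the synthase, transport and lipoxygenase lists with any endothelin. Over all tested probe sets the calls with ET-1, ET-2 and ET-3 were 95, 32 and 90 without replicate 1. They were 23, 44 and 43 without replicate 2 and 256, 143 and 291 without replicate 3, against 268, 249 and 410 with all arrays. The list counts without replicate 1, here and below, thus cannot tell dependence on that replicate from the loss of arrays.

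**Figure D4:**
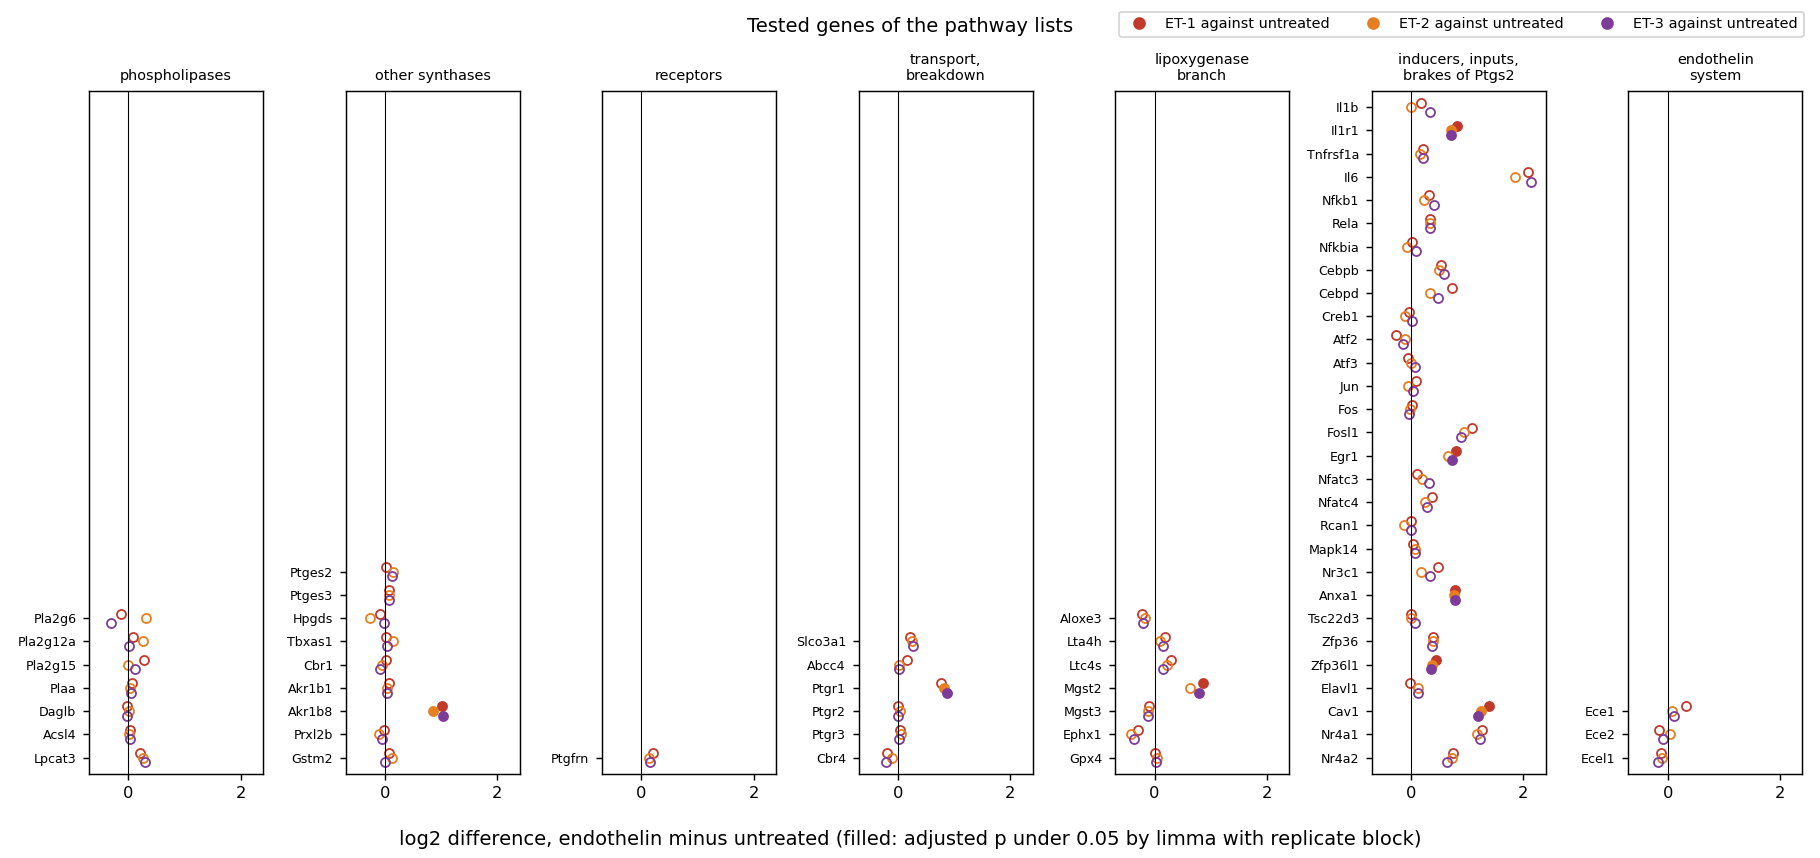
Log2 difference from untreated cells for each tested gene of 7 lists, with ET-1, ET-2 and ET-3 in 3 colours and filled symbols where limma's adjusted p is under 0.05. Filled symbols lie to the right of 0 in every list that has any, and the inducers, inputs and brakes of Ptgs2 are the longest list drawn, with 29 genes.

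Genes that induce Ptgs2, signal to it or restrain it formed the longest list. Of 36 listed, 34 were measured and 29 tested, and limma called 5 as higher with ET-1, 4 with ET-2 and 5 with ET-3, and 0 as lower, beside 1.51%, 1.28% and 2.13% called higher over all tested probe sets. This list, like the others, was chosen with earlier results of these data known, so its counts are a description. The median log2 difference of the 29 was 0.34, 0.24 and 0.33 with ET-1, ET-2 and ET-3. Il1r1, the receptor through which interleukin-1 induces Ptgs2, read 4012, 781 and 632 with ET-1 in replicates 1, 2 and 3. It read 3979, 671 and 606 with ET-2 and 3694, 762 and 557 with ET-3, against 1912, 437 and 434 in untreated cells. Its log2 differences were 0.82, 0.72 and 0.70 (limma adjusted p 0.0029, 0.0089 and 0.0053), with every endothelin array above its untreated partner.

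The immediate early transcription factor Egr1 was called higher with ET-1 (0.80, limma adjusted p 0.032) and ET-3 (0.72, 0.044) and was 0.67 with ET-2 (0.079). It read 3644, 1912 and 1256 with ET-1, 3425, 1409.6 and 1362 with ET-2 and 3471, 1853 and 1152 with ET-3, against 1822, 807 and 1121 in untreated cells. In replicate 3 the groups were thus close together. The Egr letters stood in the Ptges window printed above, where binding was not measured here. Nr4a1, another immediate early factor, gave 1.26, 1.18 and 1.22 (lowest adjusted p 0.051), and Fosl1, a partner of Jun in AP-1, gave 1.08, 0.95 and 0.89 (lowest adjusted p 0.089), so neither was called. Fos, Jun and Atf3 were not called either (0.01, 0.09 and -0.05 with ET-1).

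Cav1, the caveolin that can bind cyclooxygenase-2, read 2394, 2081 and 1178 with ET-1, 2573, 1419 and 1196 with ET-2 and 2339, 1724 and 986 with ET-3, against 815, 559 and 723 in untreated cells. All 9 endothelin arrays lay above all 3 untreated ones. Its log2 differences were 1.39, 1.24 and 1.20 (limma adjusted p 0.0036, 0.0092 and 0.0064), and the tested second probe set of the gene was called as well (1.22, 1.21 and 1.16). Anxa1, a glucocorticoid-induced inhibitor of phospholipase A2, rose by 0.78, 0.77 and 0.78 (adjusted p 0.022, 0.029 and 0.018). Zfp36l1, which promotes decay of messenger RNAs with AU-rich elements, rose by 0.45, 0.37 and 0.36 (adjusted p 0.011, 0.038 and 0.031).

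Il6, a cytokine often made together with Ptgs2, had the widest difference of the list without passing. It read 3102, 284 and 368 with ET-1, 3573, 197 and 281 with ET-2 and 3388, 317 and 331 with ET-3, against 184, 106 and 220.0 in untreated cells. As with Ptges, the endothelin arrays of replicate 1 stood far above the rest. Its log2 differences were 2.08, 1.85 and 2.13 (limma adjusted p 0.089, 0.134 and 0.066). The glucocorticoid receptor Nr3c1 gave 0.47, 0.17 and 0.34 and was not called. Cebpd was not called by its brighter probe set (0.72, 0.34 and 0.48), while another, 1368813_at, was called with ET-3 (0.76, adjusted p 0.029) and not with ET-1 or ET-2. Elavl1 was not called by its brighter probe set either (-0.01, 0.13 and 0.12). Its probe set 1375892_at was called by limma with ET-1 (0.65, adjusted p 0.022) and ET-3 (0.66, 0.018) and not with ET-2 (0.55, 0.056). Without replicate 1 limma called 2, 0 and 0 genes of this list with ET-1, ET-2 and ET-3, a setting chosen after seeing the data.

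Of the endothelin system itself, 3 genes were tested and limma called 0, with 1, 0 and 1 at an unadjusted p under 0.05. The endothelin-converting enzymes Ece1 (0.32, 0.08 and 0.12 with ET-1, ET-2 and ET-3) and Ece2 (-0.15, 0.03 and -0.08) and the related Ecel1 (-0.12, -0.11 and -0.17) had lowest adjusted p-values of 0.084, 0.730 and 0.224. Edn1 (59.4 to 127), Edn2 (2.8 to 20.4) and Mme (37.9 to 317) lay below the filter in their means and were not tested. Edn1 gave 0.68, 0.49 and 0.64, and its ET-1 and ET-3 arrays all lay above all untreated arrays. Edn2 gave -0.64, -0.84 and -0.42 and Mme -0.55, -0.66 and -0.49, both with groups that overlapped. The receptors Ednra and Ednrb and the ligand Edn3 were not analysed here.

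Some markers of other cells moved with the treatment beside these genes, while others on the same lists did not or went the other way. The summed intensity of 10 pericyte and smooth muscle markers was 7838, 11172 and 9562 with ET-1 in replicates 1, 2 and 3, 7779.7, 9267 and 9105 with ET-2 and 9119, 10709 and 9526 with ET-3, against 4398, 6784 and 7009 in untreated cells. All 9 endothelin sums lay above all 3 untreated sums, and Tagln carried most of each sum. Limma called 3, 3 and 4 of the 6 tested as higher with ET-1, ET-2 and ET-3: the contractile genes Acta2 (0.55, 0.47 and 0.63), Tagln (0.76, 0.59 and 0.82) and Cnn1 (0.60, 0.67 and 0.64), and with ET-3 the growth factor receptor Pdgfrb. Pdgfrb gave 0.94, 1.04 and 1.09 with ET-1, ET-2 and ET-3 (limma adjusted p 0.074, 0.052 and 0.031). Of the others, Abcc9 (148 to 328) and Myh11 were tested and not called. Abcc9 gave -0.30, -0.04 and -0.32 with ET-1, ET-2 and ET-3, and Myh11 gave 0.13, 0.25 and 0.04. Rgs5 (19 to 57), Kcnj8 (4 to 55), Cspg4 (26 to 131) and Des (77 to 152) lay below the filter in their means and were not tested. Cspg4 was higher on all 9 endothelin arrays than on all 3 untreated ones (1.07, 0.92 and 1.30). Rgs5 gave 0.15, -0.31 and 0.19, Kcnj8 -0.67, 0.04 and -0.23 and Des 0.15, 0.09 and -0.01. Without replicate 1 limma called 2, 0 and 2 of this list.

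The 10 astrocyte and Müller glia markers summed to 17496, 12523 and 18220 with ET-1, 18442, 10974 and 18573 with ET-2 and 18544, 12839 and 19449 with ET-3, against 11080, 9632 and 15650 in untreated cells. Limma called 2, 1 and 2 of the 4 tested as higher: the gap junction gene Gja1 (1.06, 0.996 and 1.03) in each comparison and Clu (0.24, 0.19 and 0.33) with ET-1 and ET-3. Gja1 and Clu carried most of each sum. Slc1a3 (0.09, -0.0009 and 0.14) and Glul (-0.02, -0.07 and 0.03) were tested and not called. Gfap (64 to 240.4), Aqp4 (78 to 170.4) and Rlbp1 (5 to 81) lay below the filter in their means, as did S100b, Aldh1l1 and Pax2. Differences were -0.04, -0.02 and 0.06 for Gfap, 0.02, -0.02 and -0.09 for Aqp4 and -0.81, -1.12 and -0.38 for Rlbp1. S100b gave -0.12, 0.27 and -0.14, Aldh1l1 0.97, 0.72 and 0.85 and Pax2 0.94, 0.63 and 0.57. Without replicate 1 limma called 1, 0 and 2 of this list. Of 7 tested fibroblast markers 0 were called higher and 1, 2 and 1 lower, Ogn with each endothelin (-0.83, -0.94 and -0.87) and Col3a1 with ET-2. Col3a1 gave -0.19, -0.35 and -0.26 with ET-1, ET-2 and ET-3. Of 12 RGC markers 1 was called, Eomes, as lower with ET-1 (-0.39, adjusted p 0.042). Eomes gave -0.27 with ET-2 and -0.30 with ET-3 (limma adjusted p 0.152 and 0.088). Microglial sums ran from 2803 to 7856, with 0 of 7 tested markers called by limma and 2, 1 and 1 at an unadjusted p under 0.05. Endothelial sums ran from 592 to 1143, and of 2 tested markers limma called Kdr, lower with ET-2 (-0.74, adjusted p 0.048). Kdr gave -0.64 with ET-1 and -0.37 with ET-3 (limma adjusted p 0.084 and 0.275). The differences of the 7 endothelial markers not tested ran from -1.97 (Emcn with ET-3) to 1.48 (Cldn5 with ET-2). Oligodendrocyte sums ran from 1123 to 1765 and those of amacrine and other retinal neurons from 3232 to 4408, with 0 of 2 and 0 of 5 called and 0 and at most 2 at an unadjusted p under 0.05. The part of these cells in the differences of Ptgs1, Ptgs2 and Ptges was not tested.

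**Figure D5:**
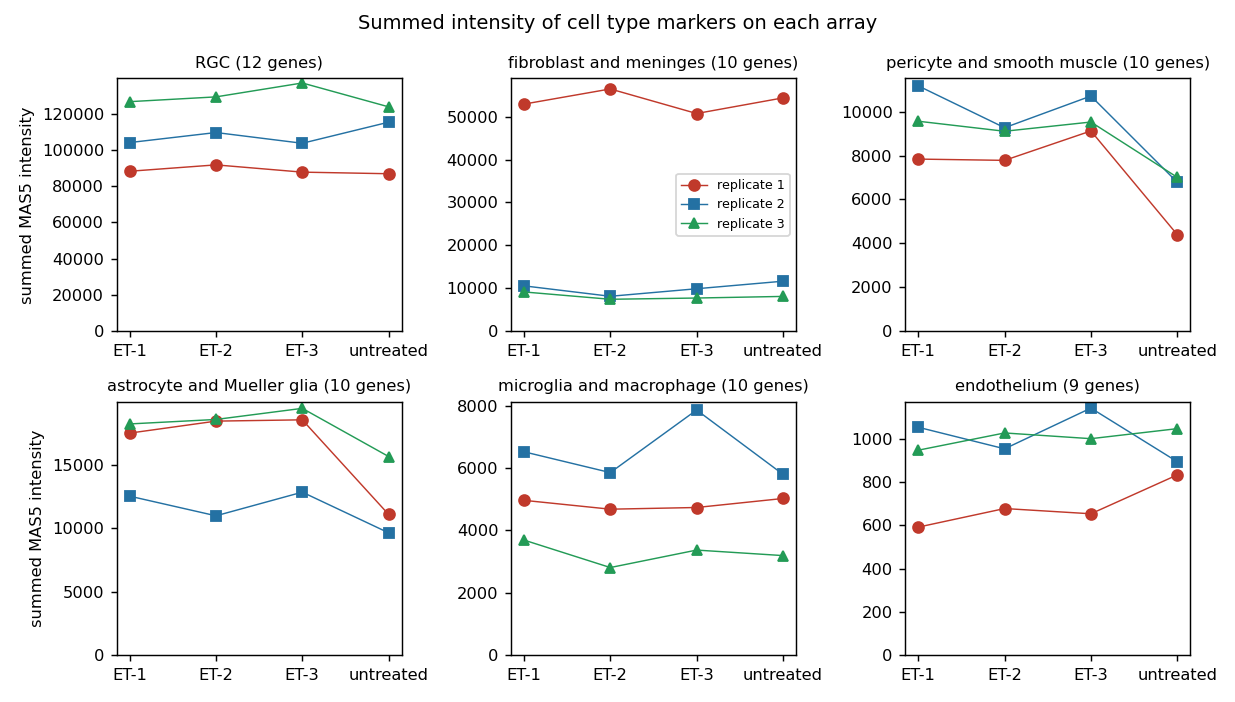
Summed MAS5 intensity of cell type markers on each array, by group, with 1 symbol per replicate number and axes starting at 0. The fibroblast and meningeal sum is high on all 4 arrays of replicate 1, untreated included, while the pericyte and smooth muscle sum is higher on all 9 endothelin arrays than on the 3 untreated ones.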

How the data were processed

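The authors deposited 1 intensity per probe set and array for 12 arrays. Per the submitters' processing notes the values came from MAS5, the Affymetrix method that reduces each probe set to 1 value. For MAS5, neither version nor settings are given in the sources used. The mean after trimming 2% at each end lay between 496.7 and 498.3 on every array, so the arrays share a scale while the rest of each distribution was left as it was. Detection calls were not used here. Precision is limited by the number of arrays.

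The platform annotation supplied gene names: 20826 had 1 symbol, 436 several and 9780 none. By Entrez ID 20758 of the first matched RefSeq, 68 did not, and 0 symbols changed. The deposited intensities were taken as log2 with no pseudocount and no further normalization. Probe sets with a mean log2 intensity at or above the median were kept (15521, covering 9425 genes). limma 3.58.1 in R 4.3.3 (lmFit, contrasts.fit, eBayes with an intensity trend) fitted 4 groups and the replicate number as a block over all 12 arrays, two-sided, with Benjamini-Hochberg adjustment and a threshold of 0.05. The block was fitted because the rule that defines this report compares the groups by replicate number. Same-numbered arrays also deviated together: all 18 correlations lay above 0.1, and the numbers accounted for 97.9% of the first principal component's variance. The labels do not say what a number marks, so only these values speak to whether same-numbered arrays belong together. The block took the median residual SD to 0.127, against 0.25 without it, and left 6 residual degrees of freedom, against 8.

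A gene was represented by its probe set with the highest mean log2 intensity. Named were all member probe sets, the listed genes called in any comparison plus up to 3 others per list with the smallest p, all measured endothelin genes, and the 5 genes most like each member. Cebpd, Elavl1, Fos, Fosl1, Jun, Atf3, the phospholipases below the filter and the receptors and markers not called were chosen after their values were seen. The members and the lists were chosen with earlier results of these data known. On simulated ET-1 data for 15521 probe sets the fit recovered 39% of changes of 0.5 and 90% of changes of 1 on the log2 scale, with 7 false calls. The simulated noise was independent between probe sets, and each change was the same on every ET-1 array. The members' differences varied by replicate number, so these rates may not hold for the data. Alternatives were no block, no filter, a pseudocount of 50, median centring, quantile normalization, no trend, only 2 groups and arrays left out.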

Additional observations from a re-analysis of the deposited data

How the results depend on the processing

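The log2 differences of the 5 tested member probe sets from untreated cells kept their direction under all 16 alternatives. The widest span was that of Ptges (1368015_at) with ET-3, from 0.40 without replicate 1 to 1.98. Leaving out replicate 1, or its untreated array alone, gave the lowest values for Ptgs1 and Ptges, while Ptgs2 with ET-1 and ET-3 was lowest without replicate 2 (1.42 and 1.33). The cause was not tested. The numbers of probe sets called against untreated were 268 with ET-1, 249 with ET-2 and 410.0 with ET-3. Without the replicate block 0, 0 and 0 were called, and the differences themselves stayed as they were. With no filter ET-2 gave 135 and ET-3 gave 273, with no trend the counts were 123, 71 and 170.0, and with only the 2 groups compared they were 78, 56 and 56. With arrays centred on their median ET-2 gave 1218, of which 1025 were lower. Leaving out arrays gave 23 to 575 with ET-1, 27 to 404 with ET-2 and 43 to 685 with ET-3, the highest count in each without untreated replicate 3. Between ET-2 and ET-1 it gave 0 to 1. The other 2 pairs of endothelins stayed at 0 under every alternative run. Of the listed genes outside the set, 42 calls over 18 genes were followed, cell type markers included, and none was kept in all 16 alternatives. All 42 were lost without the block (adjusted p 0.9998 or more), and all but 3 (Acta2 with ET-3, Gja1 with ET-1 and ET-3) in at least 1 other alternative. Cav1 and Il1r1 with ET-1 were lost in 2. The second probe sets of Cav1, Cebpd and Elavl1 were followed only in the fit without the block, where 0 probe sets passed.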
